A study of Mus musculus with 8 samples.

Results

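Genes for the enzymes that write, copy and remove DNA methylation were followed in male germ cells: the methyltransferases Dnmt1, Dnmt3a and Dnmt3b, the cofactor Dnmt3l, the dioxygenases Tet1, Tet2 and Tet3, and the adaptor proteins Uhrf1 and Uhrf2. They were picked out of the table by gene symbol, as a set put together with earlier results of these data known. Each of the 9 symbols occurred once among the 56324 gene models of the deposited table, and all 9 reached the minimum for testing, which was 10 normalized counts in at least 4 libraries. Values for 4 libraries are given in the order of libraries 1 to 4 of a cell type. A normalized count is a read count divided by a size factor of its library. The libraries came from C57BL/6 mice aged 12 weeks, from which spermatocytes (cells in meiosis) and spermatids (their haploid products) were separated by sedimentation at unit gravity. There were 4 libraries of each cell type, and every one was labelled as Sam68 -/-, a homozygous null genotype of Khdrbs1, the gene for the RNA-binding protein Sam68. Germ cells of normal mice were not analysed here, so each comparison is between cell types under the Sam68 -/- label, and no effect of Sam68 can be read from it. The labels do not say how many animals gave each library. P-values therefore set the difference between cell types against the scatter of these samples and no more, and that scatter may be technical.

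Methyl groups on cytosine of CpG dinucleotides are copied after replication by Dnmt1, which Uhrf1 guides to hemimethylated sites. New methylation is set by Dnmt3a and Dnmt3b, and in prospermatogonia before birth Dnmt3l, which has no catalytic activity of its own, is needed for it. Tet enzymes oxidise methylcytosine as the first step of active removal. By the stages sampled here the paternal pattern of methylation is largely in place, and spermatids no longer replicate their DNA.

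The maintenance genes were lower and part of the de novo set was higher in spermatids. Dnmt1 fell 5.60-fold and Uhrf1 2.06-fold in mean normalized count, while Dnmt3l rose 15.9-fold and Dnmt3a 2.85-fold. Called genes had an adjusted p below 0.05 by limma, with Benjamini-Hochberg adjustment over all 28735 tested models, and a change of at least 2-fold. With this rule 2 of the 9 genes were higher and 2 were lower in spermatids, beside 32.5% of all tested models higher and 29.8% lower. Tet3 passed the adjusted p at a smaller fold, which makes 5 of 9 genes past that threshold beside 72.3% of all models. The libraries of both cell types did not overlap for Dnmt1, Uhrf1, Dnmt3l and Dnmt3a, 4 of 9 genes, beside 66.4% of all models. The median log2 fold change was -0.29 over the 9 genes and -0.011 over all tested models. With equal total reads or quantile normalization 4 of the 9 genes were called lower, beside 37.4% and 36.3% of all tested models. With a correction for GC content 5 were called lower, beside 32.2% of the 17033 models with a GC content, of which 21.1% were lower before the correction. Change between these cell types was, as deposited, no more frequent among the 9 genes than in the transcriptome. In bulk RNA fewer cells of a type and less RNA per cell cannot be told apart.

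**Figure D1:**
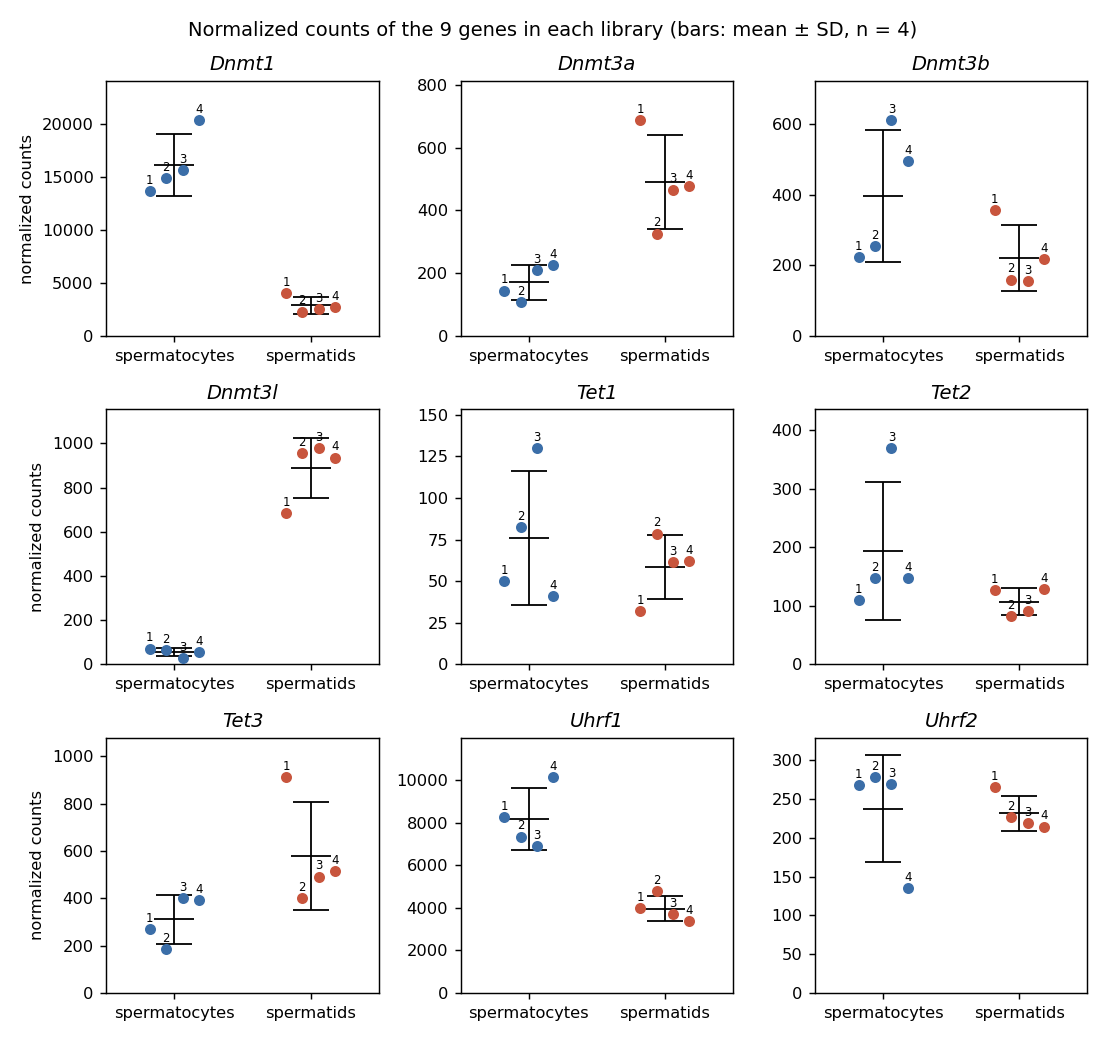
Normalized counts (vertical axes, linear and starting at 0) of the 9 genes in 4 spermatocyte and 4 spermatid libraries, numbered in sample order, with mean ± SD bars. Dnmt1 and Uhrf1 are lower in every spermatid library than in any spermatocyte library, Dnmt3l and Dnmt3a are higher in every one, and the other 5 genes overlap.

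The libraries held between 49000266 and 93975960 reads over gene models. Khdrbs1 itself had 3421.0 to 4984.5 normalized counts in spermatocytes and 625.2 to 1128.7 in spermatids, so reads of the gene model were present under the Sam68 -/- label. The labels do not say which part of the gene is altered and no other genotype was analysed here, so these values do not check the label. Spermatid markers such as Prm1 were higher in spermatids for 10 of 10 genes. Of 10 spermatocyte markers 3 were lower in spermatids and 1, Pgk2, was higher, and the list stayed abundant in both fractions (mean log2 level 13.61 to 14.43 and 13.16 to 13.44). Sycp1, which encodes a protein of the synaptonemal complex of meiosis, was at 1653.1 in spermatocyte library 4 and at 12679.6 to 26689.6 in the other spermatocyte libraries. Sycp3 (3302.9), Hormad1 (1395.1) and, narrowly, Spo11 (9591.2) were also lowest in library 4 among spermatocytes. Piwil1 (166551.4), Mlh3 (1257.0) and Ccna1 (25278.9) were highest there, and Adam3, Pgk2 and Ldhc lay between. Of 10 Sertoli cell markers all were lower in spermatids, with summed levels of 33466.7 to 169491.7 normalized counts in spermatocytes and 2073.7 to 7814.9 in spermatids and none at 0 in any library. The mean log2 level of this list was highest in spermatocyte library 3 (12.27) and library 4 came next, while libraries 1 and 2 had 9.91 and 10.65. Of 10 spermatogonial markers 5 were higher and 1, Id4, was lower in spermatids, with summed levels of 4906.9 to 8349.7 and 2878.3 to 5624.3, mean log2 levels of 6.11 to 7.44 and 7.38 to 8.36, and none at 0. Spermatid library 1 held the highest mean log2 level of spermatogonial (8.36), S phase (10.53) and macrophage and blood cell (8.13) markers. Among spermatid libraries it was also highest for spermatocyte (13.44), Sertoli cell (7.78), Leydig cell (7.49) and peritubular and endothelial (8.16) markers. For Sertoli cell markers spermatid library 4 was nearly level with it (7.77). Spermatid library 1 was lowest for spermatid markers (14.95). The macrophage and blood cell list rose for 7 of 7 tested genes, from summed levels of 107.9 to 181.2 to 2307.4 to 5274.1, and of its genes Hbb-bs was at 0 in spermatid libraries 2 to 4. Of 8 S phase markers 3 were higher and 0 lower, of 5 Leydig cell markers 0 and 5, and of 7 peritubular and endothelial markers 4 and 1. The part of these other cells in the results was not tested, and values without single libraries are given where they change a call.

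Dnmt1, the maintenance methyltransferase, lies on chromosome 9 from 20907205 to 20959888 of mm10, on the minus strand. It had 13631.4, 14880.4, 15585.7 and 20349.1 normalized counts in spermatocytes. In spermatids it had 4038.2, 2290.5, 2496.5 and 2684.0. The highest spermatid library was thus far below the lowest spermatocyte library. The mean fell from 16112 ± 2938 to 2877 ± 790 (SD, n = 4 per cell type), which is -2.50 ± 0.21 (SE) on the log2 scale with an adjusted p = 4.5e-07 by limma. The highest spermatid value was in library 1. By rank of the means Dnmt1 went from percentile 97.3 in spermatocytes to 84.0 in spermatids, so that it stayed an abundant RNA.

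Uhrf1, which binds hemimethylated CpG and recruits Dnmt1, lies on chromosome 17 from 56303337 to 56323485 on the plus strand. Its normalized counts were 8280.0, 7350.4, 6905.0 and 10156.3 in spermatocytes and 3988.0, 4784.7, 3705.0 and 3376.2 in spermatids. No spermatid library reached the spermatocyte range. The mean fell from 8173 ± 1441 to 3963.5 ± 602 (SD, n = 4 per cell type), which is -1.04 ± 0.18 (SE) on the log2 scale with an adjusted p = 2.3e-04 by limma. This lies close to the 2-fold threshold. Without spermatocyte library 4, the highest of its group, the log2 fold change was -0.93, and without spermatid library 4 it was -0.97, so that the gene was below the fold threshold in both cases while its adjusted p stayed below 0.05.

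Uhrf2, a relative of Uhrf1 on chromosome 19 (30030451 to 30093722, plus strand) that is known not to replace it in maintenance, was low in both cell types. It had 267.6, 278.7, 269.5 and 134.7 normalized counts in spermatocytes and between 214.4 and 265.1 in spermatids. The spermatid libraries lay inside the spermatocyte range. The log2 fold change was 0.015 (95% confidence interval -0.59 to 0.62, limma adjusted p = 0.96), which allows any fold from 0.66 to 1.54. Spermatocyte library 4, the one with low Sycp1 but the highest Piwil1, Mlh3 and Ccna1 among spermatocytes, stood below the other libraries. Without it the log2 fold change was -0.24. The sign for Uhrf2 depended on the scaling, and it was negative when libraries were scaled to equal totals, after quantile normalization or after a correction for GC content.

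Dnmt3l, the cofactor that stimulates Dnmt3a and Dnmt3b, lies on chromosome 10 from 78042287 to 78063616 on the plus strand, and it changed most of the 9 genes. It had 71.7, 65.8, 29.1 and 57.1 normalized counts in spermatocytes, which rest on 26 to 89 reads. In spermatids it had 685.1, 956.9, 977.3 and 936.0, from 651 to 1024 reads. The lowest spermatid library was many times above the highest spermatocyte library. The mean rose from 55.9 ± 18.9 to 889 ± 137 (SD, n = 4 per cell type), which is 4.03 ± 0.305 (SE) on the log2 scale with an adjusted p = 2.0e-07 by limma, with a 95% confidence interval of 10.3 to 25.9 for the fold. Its percentile by mean went from 35.8 to 71.6. The lowest spermatocyte value was in library 3, where the Sertoli markers were highest, and the lowest spermatid value was in library 1. Among spermatid libraries, spermatid markers were lowest in library 1 and every other marker list was highest there, narrowly so for Sertoli cells.

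The Dnmt3l model shares 1325 bases at its 5' end with that of Aire, a transcriptional regulator best known from the thymus that is annotated on the opposite strand. Aire had 12.9, 12.8, 11.2 and 9.1 normalized counts in spermatocytes and 115.5, 158.9, 211.7 and 195.9 in spermatids. It was thus higher in every spermatid library as well. The libraries were stranded, but no source used here gives the strand setting of the counting, so reads of the shared stretch may have been assigned to either gene. In each of the 8 libraries the whole Aire level was below that of Dnmt3l. Among other models that share bases with the 9 genes, 4833432E10Rik (218 bases of Dnmt3a) had 13.7 to 86.1 normalized counts in spermatocytes and 20.6 to 102.1 in spermatids, and an unnamed model inside Uhrf2 had 48.0 to 80.5 and 12.0 to 72.5.

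RefSeq gives start sites for all 9 genes, 3 of them each for Dnmt3l, Dnmt1 and Dnmt3a. The table sums reads over all starts, so that the start in use cannot be told from these data. The 250 bases before a start site are shown for the 4 genes that changed, wherever they touch no annotated UTR, because they differ in CpG, the dinucleotide on which these enzymes act. Coordinates are of GRCm38.p6, which is mm10, sequences run 5′ to 3′ on the strand of the gene, and capitals mark CpG. The first window of Dnmt3l overlaps an annotated exon and lies within the span of the Aire model. Those of Dnmt3l lie at chr10:78042037-78042286, chr10:78049592-78049841 and chr10:78055085-78055334 on the plus strand. Those of Dnmt1 are chr9:20959889-20960138 and chr9:20952980-20953229 on the minus strand. Those of Dnmt3a (chr12:3806730-3806979) and Uhrf1 (chr17:56304063-56304312) are on the plus strand.
Dnmt3l start 1: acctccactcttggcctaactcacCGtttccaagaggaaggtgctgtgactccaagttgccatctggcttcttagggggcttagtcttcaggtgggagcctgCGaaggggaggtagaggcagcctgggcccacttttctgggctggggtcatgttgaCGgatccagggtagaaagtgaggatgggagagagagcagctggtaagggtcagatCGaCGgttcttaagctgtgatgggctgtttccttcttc
Dnmt3l start 2: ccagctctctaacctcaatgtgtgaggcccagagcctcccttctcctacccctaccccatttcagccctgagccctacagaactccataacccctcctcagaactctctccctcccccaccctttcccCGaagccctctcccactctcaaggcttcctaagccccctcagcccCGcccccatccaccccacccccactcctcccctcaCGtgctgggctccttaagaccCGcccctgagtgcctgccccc
Dnmt3l start 3: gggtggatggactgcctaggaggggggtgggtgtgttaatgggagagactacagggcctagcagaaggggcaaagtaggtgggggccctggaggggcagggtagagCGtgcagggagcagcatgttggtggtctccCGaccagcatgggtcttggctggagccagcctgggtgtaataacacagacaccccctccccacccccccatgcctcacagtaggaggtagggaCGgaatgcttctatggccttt
Dnmt1 start 1: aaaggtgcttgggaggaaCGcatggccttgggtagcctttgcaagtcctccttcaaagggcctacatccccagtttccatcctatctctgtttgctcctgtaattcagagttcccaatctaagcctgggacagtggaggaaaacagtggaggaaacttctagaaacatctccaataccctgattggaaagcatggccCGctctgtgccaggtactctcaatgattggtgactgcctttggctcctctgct
Dnmt1 start 2: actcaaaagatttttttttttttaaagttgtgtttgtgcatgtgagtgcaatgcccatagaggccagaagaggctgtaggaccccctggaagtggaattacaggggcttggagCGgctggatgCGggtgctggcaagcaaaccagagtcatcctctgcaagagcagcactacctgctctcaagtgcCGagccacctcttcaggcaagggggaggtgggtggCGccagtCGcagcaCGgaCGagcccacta
Dnmt3a start 1: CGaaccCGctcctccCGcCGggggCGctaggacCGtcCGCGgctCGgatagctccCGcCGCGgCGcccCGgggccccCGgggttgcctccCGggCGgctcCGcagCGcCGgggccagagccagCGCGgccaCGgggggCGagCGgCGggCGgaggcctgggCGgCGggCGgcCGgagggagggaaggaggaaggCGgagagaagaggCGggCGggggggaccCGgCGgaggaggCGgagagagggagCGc
Uhrf1 start 2: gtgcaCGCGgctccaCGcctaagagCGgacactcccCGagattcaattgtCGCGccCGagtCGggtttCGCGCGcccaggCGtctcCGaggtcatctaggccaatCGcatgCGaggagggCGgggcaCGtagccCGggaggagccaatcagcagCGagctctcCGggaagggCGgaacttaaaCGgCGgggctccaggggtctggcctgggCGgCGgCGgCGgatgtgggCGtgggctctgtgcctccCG

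The 3 windows of Dnmt3l hold 5, 4 and 3 CpG, and 44.4%, 37.8% and 29.0% of the 32851 promoters in the RefSeq table hold fewer. The median over all promoters is 6. Among the 9 genes, Dnmt3l was the one in which each start site had fewer CpG than that median. The windows of Dnmt1 hold 2, 7 and 26 CpG, and those of Uhrf1 hold 10 and 30. Dnmt3a holds 38, 40 and 15, Dnmt3b 21, Tet1 15, Tet2 51, Tet3 17 and Uhrf2 23. Direction of change did not follow this count, since Dnmt3l and Dnmt3a, both higher in spermatids, hold few and many CpG before their first starts. The palindromic cAMP response element TGACGTCA, which 1.55% of all promoters hold, was in none of the windows of the 9 genes, nor were the E2F-type motifs TTTGGCGC (0.417% of promoters) and TTTCCCGC (0.895%) or the NRF1 palindrome (0.782%), searched on both strands. The GC box GGGCGG, in 32.7% of promoters, was found before at least 1 start of each of the 9 genes, with 5, 4 and 1 matches before the 3 starts of Dnmt3a, 0, 2 and 0 for Dnmt3l, 0, 0 and 2 for Dnmt1, 1 and 3 for Uhrf1, 3 each for Dnmt3b and Uhrf2 and 1 each for Tet1, Tet2 and Tet3. The CCAAT box, the letters CCAAT in 33.8% of promoters, was found 4, 0 and 3 times before the 3 starts of Dnmt1, 1 and 2 times before those of Uhrf1 and 1 time before that of Tet3, and in no window of the other 6 genes. The absence of a match says that these letters are not in the window and no more.

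Dnmt3a, a de novo methyltransferase on chromosome 12 (3806007 to 3914443, plus strand), had 144.3, 107.0, 210.2 and 226.1 normalized counts in spermatocytes. It had 688.7, 326.1, 466.9 and 476.7 in spermatids. Every spermatid library was above every spermatocyte library. The mean rose from 172 ± 55.9 to 490 ± 149 (SD, n = 4 per cell type), which is 1.52 ± 0.31 (SE) on the log2 scale with an adjusted p = 7.6e-04 by limma. The highest value was in spermatid library 1, where every marker list but that of spermatids was highest among spermatid libraries, narrowly so for Sertoli cells. Without that library the log2 fold change was 1.34 and the gene was still called. It was 1.16 with quantile normalization and 1.08 with equal total reads, still past the threshold.

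Dnmt3b, the second de novo methyltransferase, lies on chromosome 2 (153649449 to 153687728, plus strand) and was not called. Its normalized counts were 223.2, 255.2, 611.7 and 494.3 in spermatocytes and 355.5, 159.8, 154.6 and 217.7 in spermatids. Spermatocyte libraries 3 and 4 were high, and libraries 1 and 2 lay within the spermatid range. The log2 fold change was -0.79 ± 0.38 SE (95% confidence interval -1.61 to 0.03, limma adjusted p = 0.078). Libraries 3 and 4 also had the highest Sertoli marker levels among spermatocytes, and without both the log2 fold change was -0.19 (limma adjusted p = 0.63). The gene was called lower after quantile normalization (-1.16), after the GC correction (-1.08) and with equal total reads (-1.22), and also without spermatocyte library 1 (-1.02) or spermatid library 1 (-1.04).

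**Figure D2:**
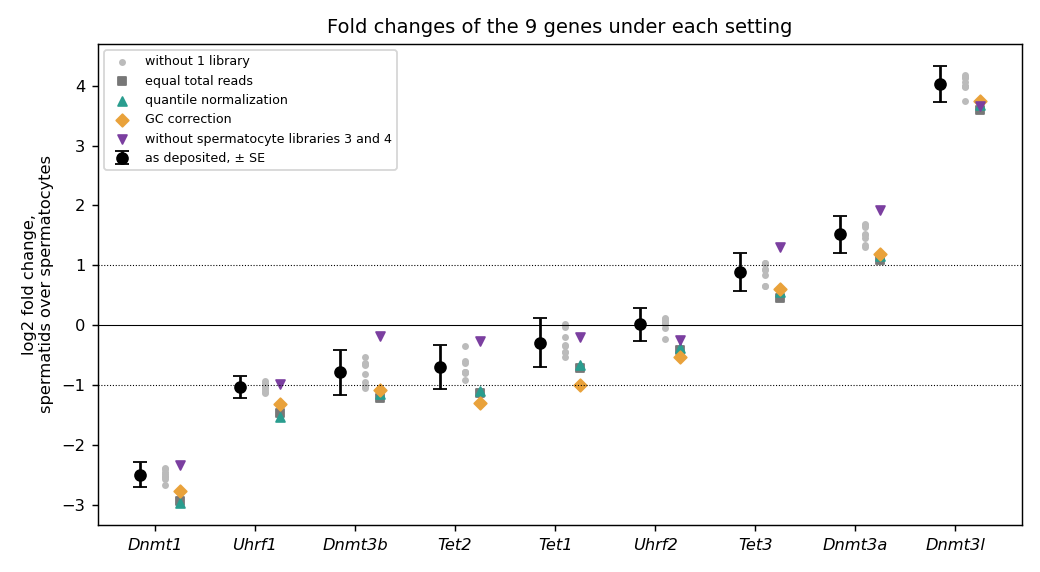
Log2 fold change of spermatids over spermatocytes (vertical axis) for each of the 9 genes, as deposited with SE bars (black), with each single library left out (grey) and under 4 other settings. Dotted lines mark the 2-fold threshold. Dnmt1, Dnmt3a and Dnmt3l stay beyond it under every setting drawn. Uhrf1, Dnmt3b, Tet1, Tet2 and Tet3 lie on either side of it, depending on the setting.

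Tet3, on chromosome 6 (83362373 to 83456392, minus strand), had the highest mean level per length of the 3 Tet genes in both cell types. It had 269.2, 184.5, 401.4 and 390.5 normalized counts in spermatocytes and 912.6, 400.0, 490.9 and 513.7 in spermatids. The groups overlapped narrowly, with spermatid library 2 just below the highest spermatocyte library and spermatid library 1 far above all others. The mean went from 311 ± 104 to 579 ± 228 (SD, n = 4 per cell type), which is 0.89 ± 0.32 (SE) on the log2 scale with an adjusted p = 0.025 by limma, below the 2-fold threshold. Without spermatid library 1 the log2 fold change was 0.65 with an adjusted p = 0.078 by limma. Among spermatid libraries, library 1 was highest for every marker list but that of spermatids, narrowly so for Sertoli cells. The adjusted p by limma was 0.053 without spermatocyte library 1 and 0.079 without spermatocyte library 2. Without spermatocyte library 3, spermatocyte library 4 or spermatid library 2 the log2 fold change was 1.03, 1.02 or 1.04 and the gene was called, as it was without both spermatocyte libraries 3 and 4 (1.30). With equal total reads it was 0.45 and with quantile normalization 0.56, past neither threshold.

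Tet2, on chromosome 3 (133463679 to 133544390, minus strand), had 110.4, 147.2, 369.0 and 147.3 normalized counts in spermatocytes. It had 126.3, 83.2, 91.6 and 128.4 in spermatids. Spermatocyte library 3 stood apart. Spermatocyte libraries 2 and 4 lay slightly above the highest spermatid library, and spermatocyte library 1 lay within the spermatid range. The log2 fold change was -0.70 ± 0.37 SE (95% confidence interval -1.51 to 0.10, limma adjusted p = 0.10), and -0.34 without library 3, the library with the highest Sertoli markers. Tet2 was called lower after quantile normalization (-1.10), after the GC correction (-1.29) and with equal total reads (-1.14).

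Tet1, on chromosome 10 (62804570 to 62880014, minus strand), had the lowest mean level per length of the 9 genes in both cell types. Its normalized counts were 50, 82.4, 129.7 and 41.1 in spermatocytes and 32.2, 78.5, 61.6 and 62.0 in spermatids, so the groups overlapped. As few as 36 reads lay behind a value in each cell type. The log2 fold change was -0.29 (95% confidence interval -1.20 to 0.62, limma adjusted p = 0.54), an interval that includes a 2-fold fall. After the GC correction it was -1.01 and called, and without spermatocyte library 3 it was 0.01. Transcripts of Tet1 and Tet2 have GC contents of 43.7% and 45.4%, against 51.9% to 54.0% for the Dnmt genes, Tet3 and Uhrf1 and 47.2% for Uhrf2.

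Levels were compared between genes after division by the exon length of the GENCODE gene, joined over all its isoforms. The exon lengths behind the authors' models were not used here. The joined length was 16.64 kb for Dnmt3a, 15.46 for Tet1, 16.87 for Tet2 and 16.7 for Tet3, and 2.99 to 8.59 for the other genes. It can exceed the length of the RNA present, which lowers the level per kb, so the order is approximate. In spermatocytes Dnmt1 had 2184 ± 398 and Uhrf1 1919 ± 338 normalized counts per kb (SD, n = 4 libraries), with overlapping ranges. Dnmt3b followed at 77.6 ± 36.8, below Uhrf1 in every library. Its range also did not meet that of Uhrf2, at 27.7 ± 8.01, and from there on each neighbour in the order overlapped the next: Dnmt3l (18.7 ± 6.32), Tet3 (18.7 ± 6.21), Tet2 (11.5 ± 7.01), Dnmt3a (10.3 ± 3.36) and Tet1 (4.90 ± 2.59). Dnmt1 and Uhrf1 together made up 94.2% to 96.6% of the summed level per kb of the 9 genes in each spermatocyte library and 71.9% to 77.3% in each spermatid library.

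In spermatids the order differed. Uhrf1 stood first at 931 ± 141 normalized counts per kb (SD, n = 4), above Dnmt1 at 390 ± 107 with no overlap, and Dnmt1 overlapped with Dnmt3l at 297 ± 45.8. Dnmt3l thus moved from the low group to the range of Dnmt1, and its share of the summed level per kb went from between 0.2% and 0.6% among spermatocytes to between 11.9% and 19.7% among spermatids. Dnmt3b (43.5 ± 18.3), Tet3 (34.7 ± 13.6), Dnmt3a (29.4 ± 8.98) and Uhrf2 (26.9 ± 2.68) came next with overlapping ranges. Tet2 (6.36 ± 1.38) and Tet1 (3.79 ± 1.25) were lowest.

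**Figure D3:**
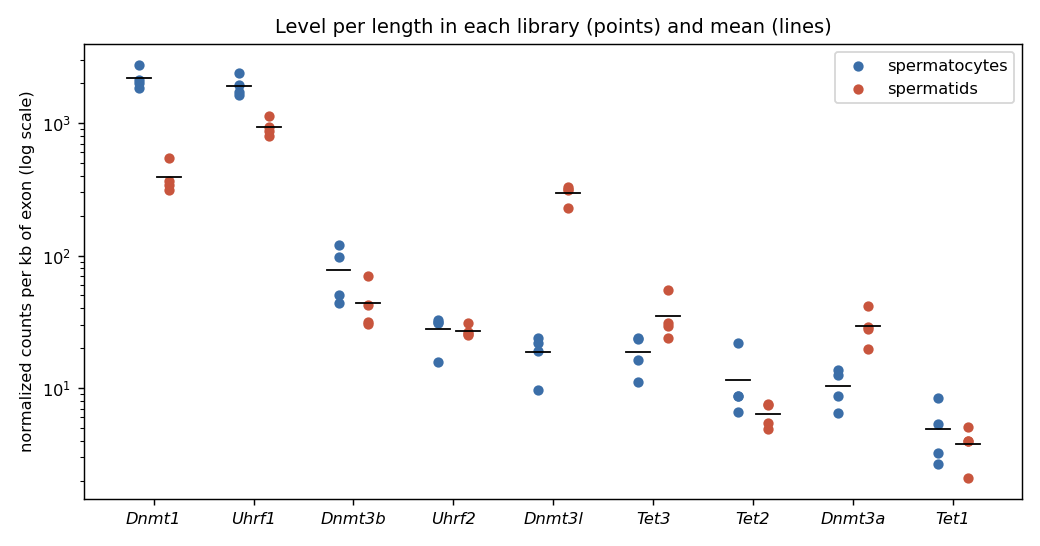
Normalized counts per kb of exon (log axis) of the 9 genes in each spermatocyte (blue) and spermatid (red) library, ordered by the spermatocyte mean, with lines at the means. Dnmt1 and Uhrf1 lead in spermatocytes at about 2184 and 1919, and Dnmt3l rises from 18.7 to 297 and reaches the range of Dnmt1 in spermatids.

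The balance between related genes was compared as a log2 ratio within each library, which does not depend on the scaling of the library. Of 4 pairs, 3 differed between cell types with no overlap (exact two-sided permutation test, p = 0.0286 each, the smallest that 4 against 4 allows, Benjamini-Hochberg adjusted p = 0.0381 over the 4 pairs). Any ratio without overlap gives this p, and 66.4% of all tested models did not overlap on their own. The share over other pairs of genes was not computed, so whether 3 of 4 is frequent was not tested. The ratio of Dnmt3a to Dnmt3b changed sign in normalized counts, with -0.63, -1.25, -1.54 and -1.13 in spermatocytes and 0.95, 1.02, 1.59 and 1.13 in spermatids. Dnmt3b reads prevailed over Dnmt3a reads in every spermatocyte library and Dnmt3a reads in every spermatid library, without regard to length. Per kb of exon the mean of Dnmt3b stayed above that of Dnmt3a in spermatids (43.5 and 29.4). The change of sign thus holds for counts not divided by length, while the shift of the ratio does not depend on length. The mean log2 ratio went from -1.13 ± 0.38 to 1.17 ± 0.29 (SD, n = 4 per cell type).

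Tet2 lost ground to Tet3, with a log2 ratio of -1.28, -0.32, -0.12 and -1.40 in spermatocytes and -2.84, -2.25, -2.41 and -1.99 in spermatids. Neither gene was called on its own, but the ratio was lower in every spermatid library, by 1.59 on average. The ratio of Uhrf1 to Uhrf2 went from 5.14 ± 0.73 to 4.09 ± 0.22 (SD, n = 4 per cell type), a difference of -1.06, and of -0.69 without spermatocyte library 4, where Uhrf2 was low. The ratio of Tet1 to Tet3 overlapped between cell types (-2.10 ± 0.91 and -3.28 ± 1.05, SD, n = 4 each; exact permutation p = 0.20). With any library left out, 3 against 4 could not pass the adjusted threshold for any pair, and the 3 pairs with no overlap were each at an adjusted p = 0.076.

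**Figure D4:**
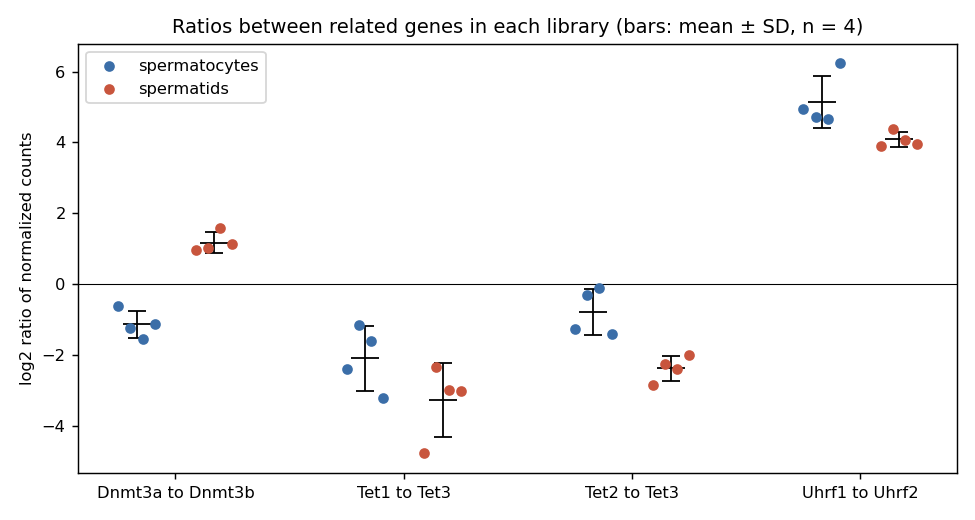
Log2 ratio of normalized counts (vertical axis) between related genes in each spermatocyte (blue) and spermatid (red) library, with mean ± SD bars. Dnmt3a to Dnmt3b lies below 0 in all spermatocyte libraries and above 0 in all spermatid libraries, and Tet1 to Tet3 is the pair whose groups overlap.

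Other genes of the pathway went both ways. In 4 lists with 72 genes, 69 were matched and 66 tested, and 13 were higher and 12 lower in spermatids, a share below the 32.5% and 29.8% of all tested models in both directions. Their median log2 fold change was 0.05. With equal total reads 9 were higher and 22 lower, beside 27.8% and 37.4% of all tested models. With quantile normalization these were 11 and 21, beside 29.1% and 36.3%. After the GC correction they were 9 and 21, beside 29.2% and 32.2% of the models with a GC content. The split of this list thus depends on the scaling, as does that of all models.

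Of 17 tested partners that recruit or maintain methylation, 4 were higher and 2 lower, at a median log2 fold change of 0.21. Zfp57, a zinc finger protein that protects imprinted methylation, rose from 767 ± 265 to 7760 ± 1422 normalized counts (SD, n = 4 per cell type), which is 3.40 ± 0.29 (SE) on the log2 scale with an adjusted p = 4.6e-07 by limma. Ctcfl, the testis paralog of Ctcf, rose by 2.86 on the log2 scale from 28.4 ± 14.3 to 195 ± 39.6 normalized counts. Setd2, whose histone mark H3K36 trimethylation is bound by Dnmt3a and Dnmt3b, fell by 2.06. Setdb1, a histone H3K9 methyltransferase, stood at the threshold (-1.01), and below it with TMM scaling (-0.99), edgeR (-0.98) and DESeq2 (-0.995), and without spermatocyte library 3 or spermatid library 2, 3 or 4 (-0.99 to -0.97). Usp7, a deubiquitinase that binds Uhrf1 and Dnmt1, and Cdca7, a partner of the remodeler Hells, were the other genes that rose. Ctcfl and Cdca7 were highest in spermatid library 1 (253.5 and 635.0 normalized counts). Among spermatid libraries that one was highest for every marker list but that of spermatids, narrowly so for Sertoli cells. Dppa3, which inhibits Uhrf1 in oocytes, was below the minimum for testing.

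Of 14 tested genes for readers of methylated or unmethylated CpG and for relatives of such readers, 6 were higher and 2 lower, at a median of 0.87. Not every relative on this list binds CpG itself. Mbd3l1, a germ cell relative of Mbd3, rose from 410 ± 79.7 to 17465 ± 4837 normalized counts (SD, n = 4 per cell type), which is 5.38 ± 0.24 (SE) on the log2 scale with an adjusted p = 2.3e-09 by limma. Cxxc5, a protein with a CXXC domain for unmethylated CpG, rose by 5.02 from 291 ± 30.1 to 9521 ± 1444. Mbd1, a reader of methylated CpG, fell by 2.87 from 2861 ± 725 to 391 ± 106, and Kdm2a, a histone demethylase with a CXXC domain, fell by 1.39. Mbd2, Mbd4 and Mbd5, named for a domain of the methyl-CpG binding family, rose as well.

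Excision repair and other routes of demethylation were covered by 18 tested genes, of which 3 were lower and 0 higher, at a median of 0.04. Parp1, a sensor of DNA strand breaks, fell from 14723 ± 2238 to 3675 ± 548 normalized counts (SD, n = 4 per cell type), which is -2.002 ± 0.175 (SE) on the log2 scale with an adjusted p = 6.5e-07 by limma. Tdg, the glycosylase that removes the products of Tet oxidation, fell by 1.45 on the log2 scale from 190 ± 43.0 to 73.3 ± 35.1. Smug1, a uracil glycosylase, was the other gene that fell. The rest, such as Apex1 and Xrcc1, were not called.

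Among 17 tested genes that supply methyl groups 3 were higher and 5 lower, at a median of -0.48. Mtr, methionine synthase, fell from 2440 ± 114 to 726 ± 269 normalized counts (SD, n = 4 per cell type), which is -1.81 ± 0.23 (SE) on the log2 scale with an adjusted p = 1.6e-05 by limma. Bhmt, which makes methionine from betaine, fell by 3.74 from 156 ± 88.6 to 12.2 ± 8.49. Its value in spermatid library 2 was 1.9, below the 2.8 normalized counts that 3 reads make there. Without that library its log2 fold change was -3.125. Mtrr, which reactivates methionine synthase, Mat2a, which makes the methyl donor S-adenosylmethionine, and Gnmt, which uses it up on glycine, fell as well. Gnmt was at 3.0 in spermatid library 3, where 3 reads make 4.5 normalized counts. Tyms, thymidylate synthase, rose by 2.585 from a low 11.8 ± 4.27 to 74.6 ± 20.7. Mat1a, at 8.23 ± 5.75 and 25.8 ± 9.81 normalized counts, was called at 1.97 as deposited. It was not called with equal total reads (1.61) or the GC correction (1.58), nor without spermatid library 1 (1.86), 2 (1.80) or 4 (1.94). Mat1a was at 0 in spermatocyte library 4, and without that library the log2 fold change was 1.08 and still called.

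**Figure D5:**
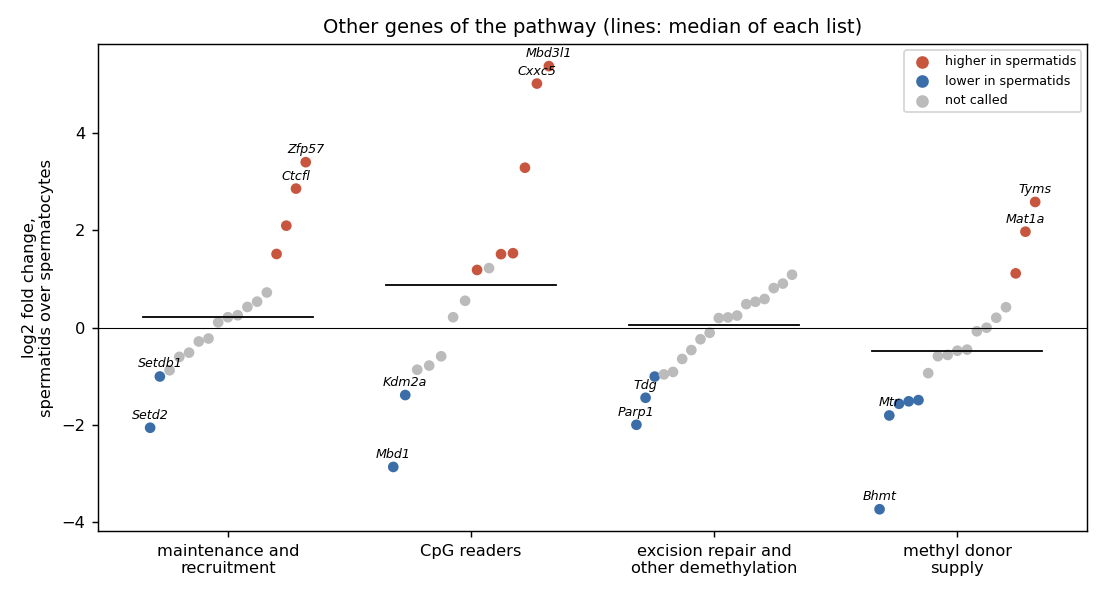
Log2 fold change of spermatids over spermatocytes for 66 tested genes of 4 pathway lists, sorted within each list, with called genes in colour and lines at the medians. Mbd3l1 and Cxxc5 are highest at 5.38 and 5.02, and Bhmt is lowest at -3.74.

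Genes with a similar profile were sought by Pearson correlation of log2 levels over the 8 libraries among 12258 named genes with a mean of at least 100 normalized counts. For genes that changed, r reflects the gap between cell types above all, and the genes compared share the depth and composition of each library. The nearest profiles were those of Hnrnpl and Stau1 for Dnmt1, Abcf2 and Nr6a1 for Dnmt3l, Mmp17 and Cd47 for Dnmt3a, and Dhrs7b and Cdk10 for Uhrf1, with r between 0.995 and 0.999. For Dnmt3b these were Arpc1b and Adpgk, for Tet2 Zeb2 and Arhgap17, and for Tet3 Prrc2b and Cdca7. Cyp2r1 was nearest to Uhrf2. Tet1 had the loosest neighbours, Phf3 and Mpp7, each with r = 0.938. Cdca7, a partner in methylation maintenance named above, was thus among the 2 closest profiles of Tet3. Both genes were highest in spermatid library 1 (912.6 normalized counts for Tet3 and 635.0 for Cdca7). Whether they are regulated together was not tested.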

How the data were processed

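RNA of sedimented spermatocytes and spermatids was sequenced as stranded polyadenylated libraries, per the labels' protocols. The deposited values are a signal that the authors scaled by 1 DESeq size factor for each library, over mm10 gene models, per the file headers and name. STAR 2.4.0, FastQC, Picard and SAMtools are named in the submitters' processing notes, while no source used here names the counting tool. Values were whole multiples of a step in each library (100% of values above 0 within 10% of a whole number of reads), which gave back reads, and the floor of 3 reads is 2.42 to 4.50 normalized counts. It covers counting error alone. Another 8 sample columns of the table were left out.

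Log2(normalized count + 1) was tested with limma 3.58.1 (trend and robust moderation, R 4.3.3) over 28735 models in all 8 libraries, which lowers the fold change of low genes. edgeR 4.0.16 and DESeq2 1.42.0 were run on the recovered reads as alternatives (edgeR called 9272 models higher and 8634 lower). Libraries of a cell type differed beyond counting noise (lowest chi-square per degree of freedom 12.2). The 9 genes, the lists, the pairs and the alternatives were chosen with earlier results of these data known. Named list genes are the 2 largest called rises and falls of each list; others were named after their values were seen, and a few genes are not reported here. Symbols not in the table were matched through RefSeq synonyms. GC content and exon lengths are from GENCODE M21, promoters from RefSeq (GRCm38.p6).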

Additional observations from a re-analysis of the deposited data

Results flagged for a closer look

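In groups of 4 libraries, a library was singled out where its gap to the nearest other library, as a share of the whole range, was above Dixon's 95% critical value. Of 54 groups examined 6 were singled out, and chance gives about 1 in 20. Dnmt3l in spermatid library 1 was at 685.1 normalized counts, below 936.0 in the nearest library. Tet2 in spermatocyte library 3 was at 369.0, above 147.3. Uhrf2 in spermatocyte library 4 was at 134.7, below 267.6. Ctcfl (253.5, above 182.2) and Setdb1 (1552.0, above 1270.2) stood out in spermatid library 1, and Parp1 in spermatocyte library 4 (18050.9, above 14027.1).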

How the results depend on the processing

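No paired analysis was possible because the labels give no replicate numbers and do not name the animals. The library numbers used here follow the order of the samples and link no libraries across cell types. Dnmt1, Dnmt3a and Dnmt3l kept their direction and their call under all 21 alternatives, with log2 fold changes of -2.97 to -2.34, 1.08 to 1.92 and 3.60 to 4.17. The count of the 9 genes called lower was 4 with equal total reads, 4 with quantile normalization, 5 with the GC correction (37.4%, 36.3% and 32.2% of all models tested there), 1 without spermatocyte libraries 3 and 4 (29.4%) and 1 to 3 with single libraries left out (higher: 2 to 3). Pathway genes called lower were 22, 21 and 21 under the first 3 of these, and 10 to 14 with single libraries left out (higher: 11 to 14). These scalings moved the median log2 fold change of all models from -0.011 to -0.44 (equal total reads) and -0.36 (quantile), and over the 17033 genes with a GC content from 0.25 to -0.26 (GC correction). There 62.6% of calls were higher before the correction and 47.5% after, and it cannot tell bias from a real difference that follows GC content. Uhrf1 was at -0.99 without spermatocyte libraries 3 and 4. Uhrf2 turned negative with equal total reads (-0.42), quantile normalization (-0.38), the GC correction (-0.54), edgeR (-0.024), DESeq2 (-0.032), without spermatocyte libraries 3 and 4 (-0.24), and without spermatocyte library 4 (-0.24) or spermatid library 1 (-0.051). With single libraries left out Uhrf2 ranged from -0.236 to 0.111 and Tet1 from -0.533 to 0.012, the last without spermatocyte library 3. With single libraries left out the ratio differences were 2.17 to 2.48 (Dnmt3a to Dnmt3b), -1.80 to -1.37 (Tet2 to Tet3), -1.21 to -0.69 (Uhrf1 to Uhrf2) and -1.55 to -0.68 (Tet1 to Tet3). Without spermatocyte libraries 3 and 4 the first 3 were 2.11, -1.57 and -0.75, each at an adjusted p = 0.18, since 2 against 4 libraries cannot pass.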
